A study of Mus musculus with 75 samples.

Results

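The data described here compare mouse skin fibroblasts that carried the Atf3 hairpin sh5 with fibroblasts that carried a non-targeting hairpin. They are 6 of the 75 samples of the series, 3 RNA-seq libraries in each group, and were chosen by their sample titles. All cells were primary mouse skin fibroblasts that had been infected with lentivirus carrying a short hairpin RNA and selected with puromycin. The controls thus shared the infection and the selection. The study describes the cells of this knockdown as pre-senescent. For its knockdowns in general, the methods name newborn mice and adult mice of 2 months as donors. The adults were female C57BL/6 mice, and no separate strain is given for the newborn mice. The methods name P2 and P3 as proliferating cells and P6 for interventions in senescence. The labels give no passage, age or sex for these 6 libraries, so which of these applies is not known here, and they do not say whether the 3 libraries of a group were separate cultures. The p-values below therefore measure the spread between these libraries, which may be technical. Another 3 libraries, of a second Atf3 hairpin named sh6, shared the control libraries and entered the same fit.

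ATF3 is a basic leucine zipper protein of the ATF/CREB family that joins Jun proteins within the AP-1 group of transcription factors. It is induced by many kinds of stress, is a known target of ATF4 in the integrated stress response, and can repress as well as activate transcription. Cdkn2a encodes the cell-cycle inhibitors p16 and p19ARF and is a common marker of replicative senescence, the arrest that fibroblasts reach after many divisions. The comparison addresses whether lowering Atf3 in pre-senescent fibroblasts changes Cdkn2a and other genes of the cell cycle.

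The 9 libraries of the Atf3 experiment held between 17245955 and 23380496 counts on genes. Replicate 3 of sh5 stood apart from the others. Between replicates 1 and 2 of sh5 the chi-square of the counts per degree of freedom was 3.20, whereas replicate 3 gave 55.9 and 59.9 against them, and the pairs of non-targeting libraries gave 3.81 to 8.67. Reads that fell on no gene made up 15.1% of this library, 11.1% and 10.7% of the other sh5 libraries and 8.40% to 8.98% of the non-targeting libraries. Fibroblast markers were high in all 6 libraries, with a sum over 14 markers, led by Col1a1, of 51420 to 53192 CPM in the controls and 42108 to 52775 CPM in sh5 (CPM, counts scaled to equal library size by TMM and given per 1e6). Markers of other cell types were low. The highest sum was that of 8 adipocyte genes, led by Lpl, at 136 to 171 CPM in the controls and 187 to 212 CPM in sh5, with Cfd and Lep at 0. Skeletal muscle genes, led by Acta1, summed to 38.2 to 39.7 CPM against 15.3 to 18.4 CPM, with Myod1, Myf5 and Pax7 at 0, and Schwann cell and melanocyte genes to 17.3 to 19.5 CPM against 16.9 to 19.1 CPM. Keratinocyte genes summed to 8.13 to 8.83 CPM against 4.12 to 6.70 CPM with Krt1 at 0, and endothelial genes to at least 13.8 CPM in every control against 8.50 to 10.4 CPM in sh5, with Tie1 and Cldn5 at 0. In such bulk samples fewer cells of a type and less RNA per cell cannot be told apart.

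Genes were ordered by the GC content of their exons. The log2 level of a gene relative to the mean of the controls changed by -0.39 and -0.34 per 10 points of GC in replicates 1 and 2 of sh5 and by -0.89 in replicate 3, against -0.10 to 0.06 in the non-targeting libraries and -0.06, -0.16 and -0.27 in the sh6 libraries. In genes over 60% GC the median deviation was -0.51, -0.44 and -1.39 in sh5 replicates 1, 2 and 3, and in genes up to 40% GC it was 0.40, 0.31 and 0.57. The trend was thus steepest in replicate 3 but was present in all 3 sh5 libraries. No control had one of that size against the mean of the controls, of which each control is part. Against the mean of the other controls, the slopes of non-targeting replicates 1, 2 and 3 were -0.145, 0.085 and 0.060. Whether the trend of sh5 is technical or belongs to the knockdown cannot be told apart in this design. Results are therefore given with all libraries, without replicate 3 of sh5, and after a correction that removes from each library a smooth curve on GC content, whatever its origin.

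**Figure D1:**
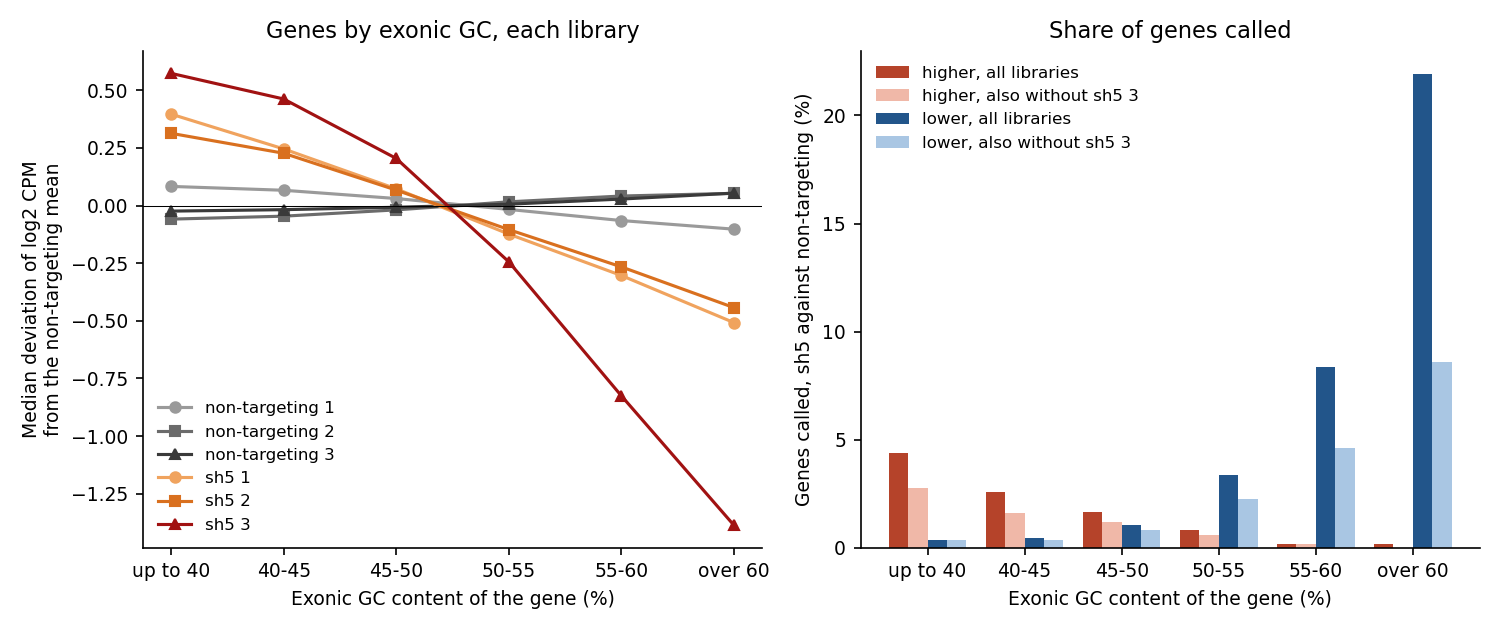
Left, median deviation of log2 CPM from the mean of the 3 non-targeting libraries (y axis) for genes grouped by exonic GC content in percent (x axis), 1 line per library. Right, the percent of genes called higher or lower in sh5 in each GC group; the sh5 lines on the left fall with GC content, most steeply for replicate 3, to -1.39 in genes over 60% GC, and 21.9% of those genes were called lower with all libraries.

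The calls below required 2-fold change and a Benjamini-Hochberg adjusted p under 0.05 in edgeR's quasi-likelihood test. Of 13345 genes tested, 694 were called with all libraries (5.2%), 184 higher in sh5 (1.38%) and 510 lower (3.82%). Without replicate 3, 489 of 13513 genes were called (3.62%), 146 higher (1.08%) and 343 lower (2.54%). In both fits 412 genes were called (3.09%), 124 higher (0.929%) and 288 lower (2.16%), and in 408 of them the 3 sh5 and the 3 control libraries did not overlap. Over all genes tested, 25.3% had all 3 sh5 libraries above all 3 controls and 28.6% had them below. The other 282 genes were called with replicate 3 only, and 222 of them were lower, with a median exonic GC content of 58.7% against 49.96% over all genes tested. With the GC correction 357 genes were called (2.68%), 133 higher (0.997%) and 224 lower (1.68%), so that higher genes made up a greater share of the calls than without it. With the correction and without replicate 3, 376 were called (2.78%), 131 higher (0.969%) and 245 lower (1.81%). In all 4 of these fits, 85 genes were higher and 146 lower. With no fold threshold 35.9% of genes passed the test, 17.7% higher and 18.1% lower, and the words rose and fell below refer to that test with all libraries.

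**Figure D2:**
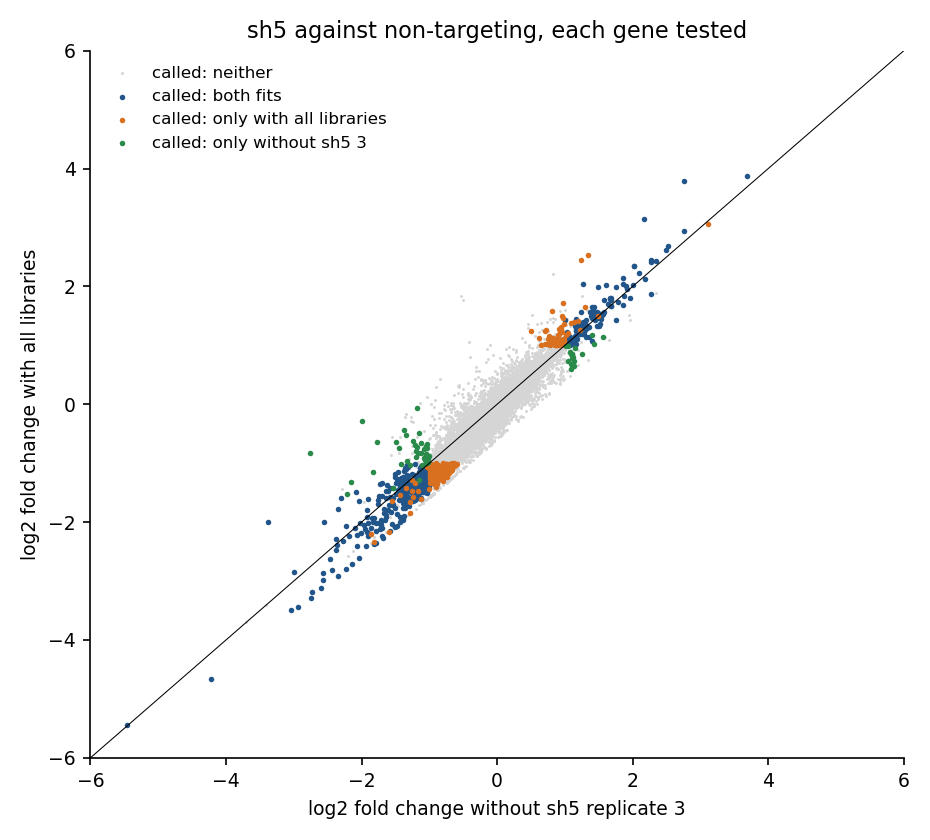
The log2 fold change of sh5 over non-targeting with all libraries (y axis) and without sh5 replicate 3 (x axis), 1 point per gene tested in both fits, coloured by the fit in which it was called; the line marks equal values. The 412 genes called in both fits lie along the line at both ends, and most genes called only with all libraries lie below it on the lower side.

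Atf3 itself (chromosome 1, 191170296 to 191183333, GRCm38) was at a low level. It stood at 3.31, 2.85 and 2.77 CPM in the non-targeting libraries, from 78, 52 and 60 reads, and at 1.46, 2.10 and 0.451 CPM in the sh5 libraries, from 27, 41 and 8 reads. All 3 sh5 libraries lay below all 3 controls, and replicate 3 was the lowest. The log2 fold change was -1.14 (SE 0.39, adjusted p = 0.0447). Without replicate 3 it was -0.71 (SE 0.26, adjusted p = 0.0393), and with the GC correction -1.02 (adjusted p = 0.0639). The direction was the same in every alternative that tested the gene, but the adjusted p exceeded 0.05 in most of those that left out a library. In sh6, Atf3 was at 1.51, 1.56 and 2.09 CPM, a log2 fold change of -0.79 (adjusted p = 0.114), and the difference between the hairpins did not pass the test (sh6 minus sh5 0.35, SE 0.42, adjusted p = 0.504). The untreated passage libraries of the series had higher levels, 7.76 ± 0.284 CPM at P1 and 14.8 ± 7.83 CPM at P7 (SD, n = 4), although these were normalised apart from the knockdown libraries.

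AP-1 proteins and their ATF partners bind short sites in promoters. RefSeq promoters (GRCm38.p6, 250 bases before to 50 bases after the start) were searched on both strands for TGACTCA, the AP-1 site, TGACGTCA, the CRE that ATF and CREB proteins bind, TGATGCAA, the composite site of C/EBP and ATF proteins, and TCACCCCAC, a site of the sterol response. The windows below are single examples from groups described further on, with the match in capitals as it reads on the gene's strand, 5′ to 3′. Other members of a group need not carry the site. Not every gene called had a promoter to search. Of the 92 genes called higher in both fits that had one, none had a sterol match. Among the 12 highest genes a CRE match was found only for Gpm6b.
Atf3, C/EBP-ATF, chr1:191183425-191183454, minus strand: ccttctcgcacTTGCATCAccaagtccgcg
Il6, AP-1, chr5:30012864-30012893, plus strand: cTGAGTCActtttaaagaaaaaaaagaaga
Gpm6b, CRE, chrX:166238883-166238912, plus strand: gcccccggcgcTGACGTCAgggcccctctc
Hmgcs1, sterol response, chr13:119690204-119690233, plus strand: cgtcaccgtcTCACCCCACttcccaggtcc

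The AP-1 site was in 4.64% of the 10571 tested genes that had a promoter, in 8 of 92 genes higher in both fits (8.70%) and in 18 of 199 genes lower in both (9.05%). It was in 5.95% of all 27025 RefSeq genes with a promoter. The CRE was in 3.66% of tested genes, in 3 of the 92 and in 3 of the 199. Matches to the composite site were in 0.747% of tested genes, 1 of the 92 and 3 of the 199, and those to the sterol site in 0.672%, none of the 92 and 3 of the 199. Among genes called with all libraries the AP-1 site was in 17 of 138 higher genes (12.3%) and in 29 of 378 lower genes (7.67%). These are matches of letters and not measured binding.

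Among the cell-cycle inhibitors, Cdkn2a (chromosome 4, 89274473 to 89294619) fell. It was at 70.0, 78.3 and 75.4 CPM in the controls and at 51.1, 51.0 and 31.9 CPM in sh5. The groups did not overlap, and replicate 3 was again lowest. The log2 fold change was -0.74 (SE 0.19, adjusted p = 0.0139), and without replicate 3 it was -0.52 (SE 0.12, adjusted p = 0.00316), so the gene was not past the 2-fold threshold in either fit. Its exons are 59.1% GC, and with the GC correction the log2 fold change was -0.19 (adjusted p = 0.165) with all libraries and -0.20 (adjusted p = 0.0989) without replicate 3. The counts do not separate the p16 and p19ARF transcripts, which share exons. In sh6 Cdkn2a was at 43.8, 41.0 and 28.9 CPM (log2 fold change -0.98, adjusted p = 0.00173), and the difference between the hairpins did not pass the test (sh6 minus sh5 -0.24, SE 0.19, adjusted p = 0.317).

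Cdkn1c, which encodes p57 and is imprinted, had the largest change of the inhibitors. It was at 93.6, 91.9 and 102 CPM in the controls and at 29.6, 40.2 and 33.9 CPM in sh5, and it was the only 1 of the 7 inhibitors that was called (log2 fold change -1.47, SE 0.13, adjusted p = 9.35e-05). Without replicate 3 its log2 fold change was -1.43, and with the GC correction -0.83 (adjusted p = 0.00815). Cdkn2b, the neighbour of Cdkn2a that encodes p15, was at 50.3, 54.9 and 58.1 CPM and fell to 36.5 to 45 CPM (log2 fold change -0.44, adjusted p = 0.00734), with -0.08 after the GC correction (adjusted p = 0.528). Cdkn2c, which encodes p18, fell from 18.6, 21.3 and 20.6 CPM to 17.0, 16.5 and 12.3 CPM (log2 fold change -0.40, adjusted p = 0.0384), and without replicate 3 it no longer passed the test (-0.24, adjusted p = 0.0739). Cdkn2d, which encodes p19INK4d, overlapped between the groups at 6.57, 8.45 and 7.99 CPM against 7.69, 6.96 and 3.44 CPM (log2 fold change -0.34, adjusted p = 0.316), and its sign turned with the GC correction (0.04). Cdkn1a, which encodes p21, was at 652, 691 and 681 CPM against 682, 682 and 429.6 CPM, with a log2 fold change of -0.17 (adjusted p = 0.366) that was 0.04 without replicate 3.

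Of the genes that promote the cycle, Cdk8, a kinase of the Mediator complex, rose from 54.7, 54.3 and 52.7 CPM to 68.9, 66.3 and 67.7 CPM. This log2 fold change of 0.33 (SE 0.07, adjusted p = 0.00533) was 0.35 without replicate 3 and 0.34 with the GC correction. Cdc6, a licensing factor of DNA replication, was at 5.30, 5.32 and 4.80 CPM and at 7.04, 5.42 and 6.15 CPM (log2 fold change 0.27, SE 0.15, adjusted p = 0.189). None of 43 S-phase genes was called, with 6 rising and 2 falling, against 17.7% and 18.1% of all genes, and a median of 0.07 that was 0.0015 with the GC correction. None of 54 G2/M genes was called either, with 11 rising and 3 falling. Their median was 0.19, 0.14 without replicate 3 and 0.05 with the GC correction, against a median of -0.03 over all genes tested.

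**Figure D3:**
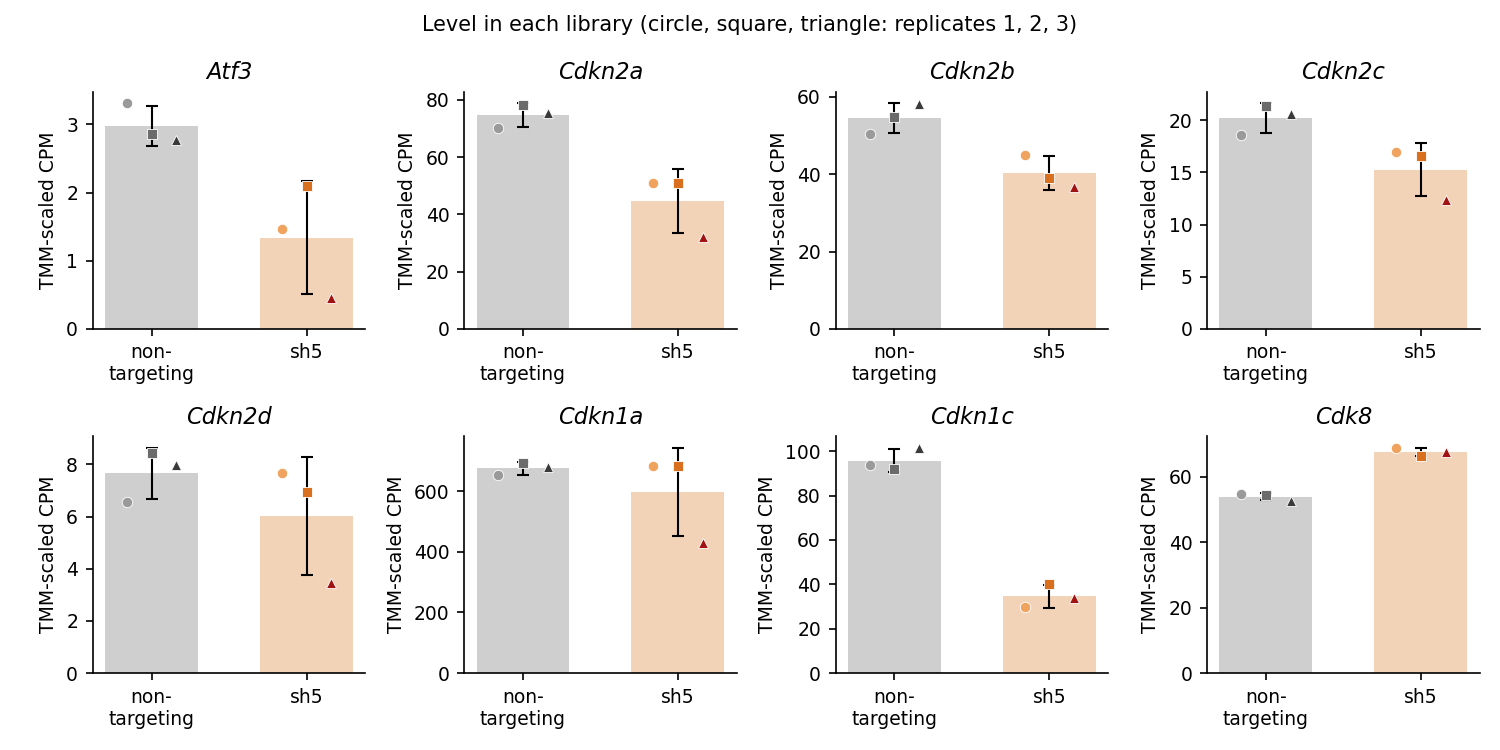
TMM-scaled CPM (y axis, from 0) of Atf3, 6 cell-cycle inhibitors and Cdk8 in the non-targeting and sh5 libraries (x axis); bars are means, error bars SD (n = 3), and points the libraries. Replicate 3 of sh5 is the lowest sh5 point for Atf3, Cdkn2a, Cdkn2b, Cdkn2c, Cdkn2d and Cdkn1a, while for Cdkn1c and Cdk8 it lies between the other two.

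None of the partners of ATF3 was called. Of 17 AP-1 genes tested, 2 rose and 5 fell, Atf3 among them, against 17.7% and 18.1% of all genes. None of the 17 was called in both fits. Their median log2 fold change was -0.31, -0.14 without replicate 3 and -0.09 with the GC correction. Jdp2, a repressor of the same family, fell from 73.3 to 88.7 CPM in the controls to a range of 46.4 to 53 CPM in sh5 (log2 fold change -0.71, adjusted p = 0.000815), yet its log2 fold change with the GC correction was -0.04. Junb was at 41.3, 52.2 and 55.5 CPM against 32.3, 38.7 and 8.85 CPM and Jund at 186, 204 and 230.2 CPM against 124, 147 and 35.4 CPM. Replicate 3 was far below the rest for both genes, whose exons are 62.4% and 62.7% GC, and neither passed the test with all libraries (adjusted p = 0.101 and 0.0581). Jun was at 89.3, 94.6 and 96.2 CPM against 82.3, 84.4 and 59.9 CPM (log2 fold change -0.31, adjusted p = 0.0785).

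Of 25 immediate early genes, which respond to growth factors and stress within minutes, 3 rose and 9 fell (median -0.29, and -0.14 without replicate 3). Over all genes 17.7% rose and 18.1% fell. With the GC correction the median of the 25 genes was 0.02. In that fit 1 of them was called higher and none lower, against 0.997% and 1.68% of all genes. Klf2, a zinc finger factor, fell from 46.9, 49.4 and 51.3 CPM to 22.1, 24.1 and 16.4 CPM (log2 fold change -1.24, adjusted p = 0.000437, and -1.06 without replicate 3), with -0.51 after the GC correction. Klf4, of the same family, fell from 195 to 205 CPM in the controls to 74.7 to 105 CPM in sh5 (log2 fold change -1.13, and -0.99 without replicate 3). Ptgs2, the inducible cyclooxygenase of prostaglandin synthesis, went the other way, from 79.3, 78.9 and 71.2 CPM to 218, 201 and 250.2 CPM. Its log2 fold change was 1.55 (SE 0.09, adjusted p = 9.66e-06), 1.48 without replicate 3 and 1.14 with the GC correction.

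Many genes of the integrated stress response, which ATF4 directs, fell in sh5. Of 30 genes tested, 17 fell and none rose, against 18.1% lower and 17.7% higher over all genes, and the median log2 fold change was -0.42 with all libraries, -0.34 without replicate 3 and -0.19 with the GC correction. Atf4, which is upstream of Atf3 in this pathway, fell from 283, 275 and 286 CPM to 154, 185 and 98.1 CPM (log2 fold change -0.95, SE 0.18, adjusted p = 0.00355, and -0.72 with the GC correction). Trib3, a pseudokinase that feeds back on ATF4, was the member called in both fits. It was at 53.5, 55.3 and 59.3 CPM in the controls and at 23.2, 22.6 and 14.4 CPM in sh5 (log2 fold change -1.48, SE 0.16, adjusted p = 0.000283, and -1.26 without replicate 3). With the GC correction the log2 fold change of Trib3 was -0.99, and none of the 30 genes was called. Ddit3, which encodes CHOP, fell from 81.8, 87.8 and 95.2 CPM to 55.3, 68.0 and 57.1 CPM (log2 fold change -0.55, and -0.55 with the GC correction). Atf5 and Chac1 were called with all libraries only, with log2 fold changes of -1.13 and -1.15 that were -0.68 and -0.82 without replicate 3.

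Most genes of cholesterol synthesis, which SREBP factors drive when sterols are low, rose in sh5. Of 23 genes, 15 rose and none fell, against 17.7% and 18.1% of all genes. The median log2 fold change was 0.52, and it was 0.63 without replicate 3 and 0.74 with the GC correction. With all libraries 6 of the 23 were called higher, against 1.38% of all genes, and 4 were called in both fits, among them Idi1, Sc5d and Hsd17b7. Idi1, the isomerase of isopentenyl diphosphate, rose from 28.5, 22.9 and 24.9 CPM to 72.1, 61.0 and 90.2 CPM (log2 fold change 1.55, SE 0.15, adjusted p = 0.000175, and 1.41 without replicate 3). Every sh5 library lay above every control. Sc5d, a sterol desaturase, was at 44.5 to 50.8 CPM in the controls and rose to 110.3 to 131 CPM in sh5 (log2 fold change 1.32). Hsd17b7, a sterol reductase, was at 92.3 to 101 CPM against 224 to 245 CPM (log2 fold change 1.28). Hmgcs1, whose promoter window is shown above, was at 177, 153 and 157 CPM against 327, 308 and 391 CPM, a log2 fold change of 1.07 that was 0.99 without replicate 3.

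Secreted factors that senescent cells release were mixed, and more rose than fell. Of 28 chemokines and cytokines tested, 10 rose and 2 fell, against 17.7% and 18.1% of all genes. The median log2 fold change was 0.35, 0.48 without replicate 3 and 0.17 with the GC correction. Il6 was low, at 1.27, 0.823 and 0.970 CPM in the controls, and rose to 2.98, 3.53 and 3.38 CPM (log2 fold change 1.67, SE 0.20, adjusted p = 0.000511). Its log2 fold change was 1.68 without replicate 3 and 1.18 with the GC correction. Cxcl14, a chemokine of skin, rose from 29.6, 38.0 and 31.8 CPM to 81.0, 80.6 and 58.3 CPM (log2 fold change 1.15), with 1.32 without replicate 3 and 1.37 with the GC correction. Ereg, an EGF receptor ligand, rose from 13.8 to 16.2 CPM in the controls to 33.9 to 41.2 CPM in sh5 (log2 fold change 1.35, and 0.93 with the GC correction). Tslp, a cytokine of barrier tissues, was near the limit of detection at 0.467, 0.549 and 0.323 CPM against 1.14, 1.38 and 0.902 CPM (log2 fold change 1.36, adjusted p = 0.0332), and it did not pass the test with the GC correction (adjusted p = 0.117). Among 21 NF-kB genes 4 rose and 2 fell, against the same 17.7% and 18.1%. Nfkbiz and Cd40, an atypical IkB and a TNF receptor, were called in both fits. Nfkbiz was at 16.9, 16.9 and 14.3 CPM against 31.1, 32.6 and 42.8 CPM (log2 fold change 1.15), and Cd40 at 4.71, 5.21 and 5.68 CPM against 10.3, 12.6 and 8.85 CPM (log2 fold change 1.03).

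Signals of the TGF-beta family moved in both directions. Of 33 genes 11 rose and 9 fell, against 17.7% and 18.1% of all genes. Inhba, the activin A subunit, rose from 340.5, 335 and 321 CPM to 677, 658 and 716 CPM (log2 fold change 1.04, SE 0.06, adjusted p = 9.82e-06, and 1.03 without replicate 3), with 0.70 after the GC correction. Mstn (chromosome 1, 53061640 to 53068079), which encodes myostatin, a ligand of the same family, had the highest log2 fold change without replicate 3 of the genes named by size. It was at 0.763, 1.26 and 1.06 CPM in the controls and at 13.4, 12.4 and 19.2 CPM in sh5 (log2 fold change 3.87, SE 0.24, adjusted p = 1.07e-05, and 3.69 without replicate 3). Bmp6 fell from 5.76 to 5.94 CPM to 1.24 to 2.51 CPM (log2 fold change -1.63, and -1.39 without replicate 3), although its exons overlap those of Txndc5 and the counting did not use strand.

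Genes of the extracellular matrix included the lowest log2 fold changes of the genes named by size. Eln (chromosome 5, 134702595 to 134747368), which encodes elastin and shares exonic bases with Gm30003, was at 141, 157 and 155 CPM in the controls and at 21.4, 23.4 and 4.62 CPM in sh5. All 3 sh5 libraries were far below the controls, with replicate 3 below the other two. The log2 fold change was -3.19 (SE 0.43, adjusted p = 0.000806), -2.72 without replicate 3 and -2.74 with the GC correction. Col8a2, a short-chain collagen, fell from 42.7, 49.1 and 55.7 CPM to 7.37, 10.1 and 6.37 CPM (log2 fold change -2.63, SE 0.22, adjusted p = 8.01e-05, and -2.46 without replicate 3). Col18a1, the source of endostatin, fell from 64.1, 79.4 and 76.2 CPM to 28.2, 33.3 and 13.9 CPM (log2 fold change -1.54, and -1.22 without replicate 3). Over 23 collagen genes 2 rose and 9 fell, against 17.7% and 18.1% of all genes. The median of the collagen genes was -0.44, but -0.26 without replicate 3 and -0.01 with the GC correction, at a median exonic GC of 56.5%. Col1a1 was at 16525, 17335 and 16256 CPM in the controls and at 13442, 14142 and 6986 CPM in sh5 (log2 fold change -0.54, adjusted p = 0.0622, and -0.03 with the GC correction). The 4 matrix metalloproteinase genes called with all libraries, Mmp3 and Mmp13 higher and Mmp9 and Mmp11 lower, were not called without replicate 3.

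More contractile genes of myofibroblasts fell than rose in sh5. Of 17 genes 11 fell and 2 rose, against 18.1% and 17.7% of all genes, and 1 was called, with a median log2 fold change of -0.51, -0.59 without replicate 3 and -0.24 with the GC correction. Myh11, the smooth muscle myosin heavy chain, fell from 45.4, 53.8 and 48.8 CPM to 13.9, 17.9 and 21.6 CPM (log2 fold change -1.47, SE 0.14, adjusted p = 0.000131, and -1.60 without replicate 3). Acta2, the smooth muscle actin, fell from 2757, 2793 and 2552 CPM to 1894, 1951 and 1881 CPM (log2 fold change -0.50, and -0.63 with the GC correction). Tagln, which encodes transgelin, fell from 1096, 1165 and 1109 CPM to 654, 688 and 911 CPM (log2 fold change -0.58). For Myh11 and Tagln replicate 3 held the highest of the sh5 values.

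**Figure D4:**
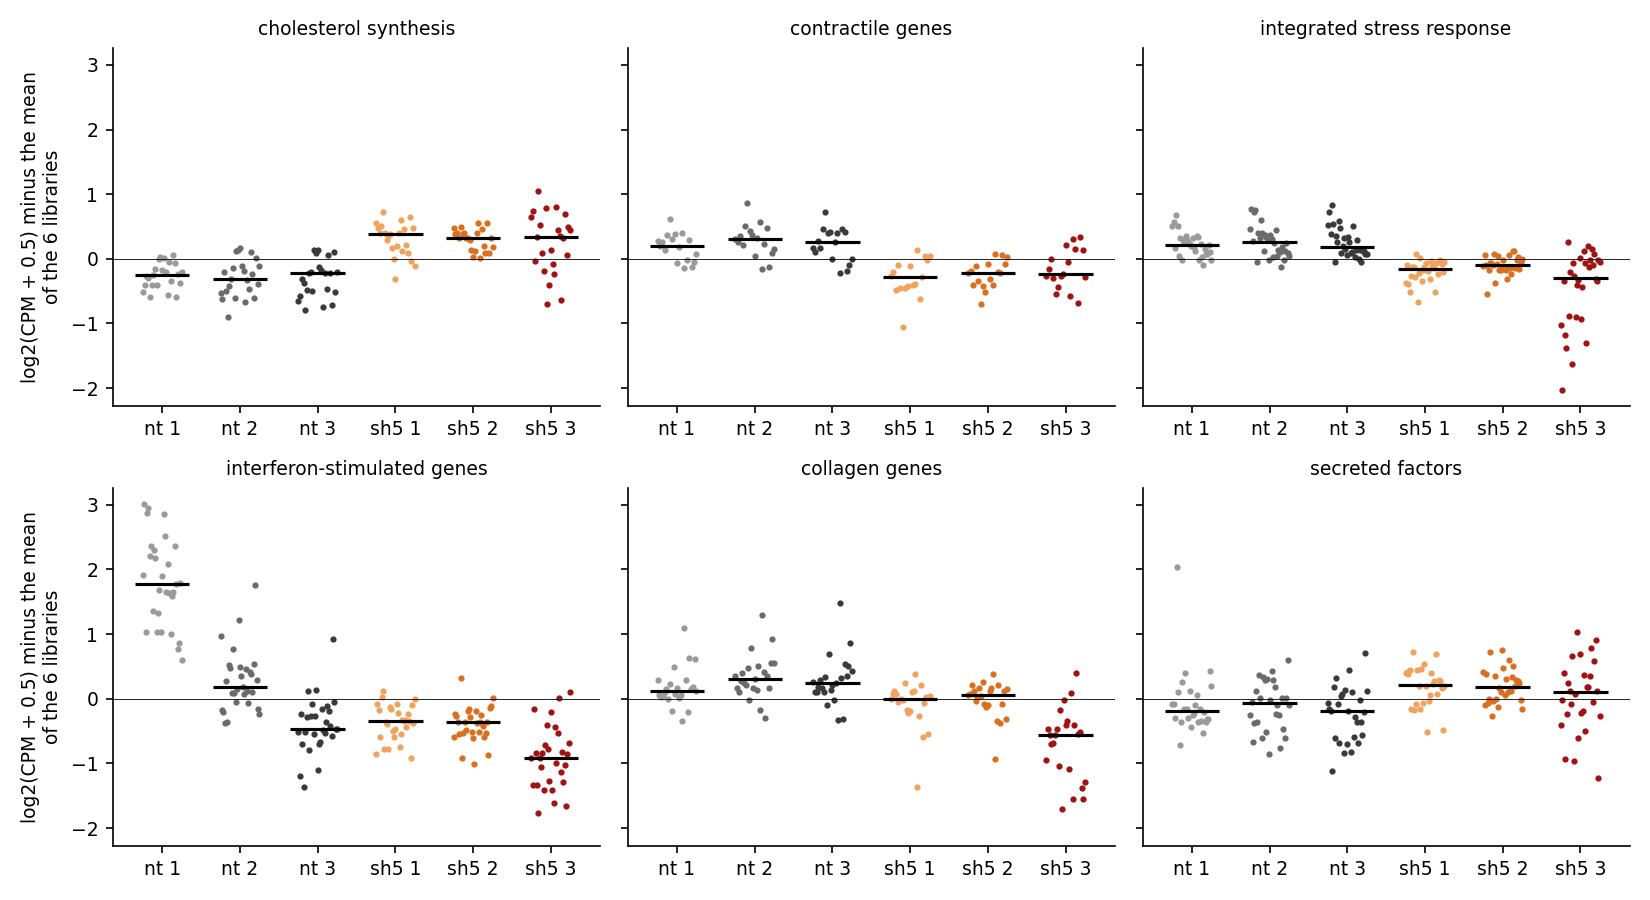
log2(CPM + 0.5) minus the mean of the 6 libraries (y axis) for each gene tested of 6 lists (points) in each library (x axis; nt, non-targeting), with the median as a bar. Medians of cholesterol synthesis were -0.31 to -0.22 in the controls and 0.33 to 0.39 in sh5, whereas the median of interferon-stimulated genes was 1.77 in non-targeting replicate 1 and -0.46 in non-targeting replicate 3, below sh5 replicates 1 and 2.

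The level of interferon-stimulated genes, which type I interferon induces, rested on 1 control library. Of 29 genes tested, 12 fell and none rose, against 18.1% and 17.7% of all genes. In both fits 11 were called lower, against 2.16% of all genes. The median log2 fold change of the list was -1.60, -1.40 without replicate 3 of sh5 and -1.62 with the GC correction. Oasl2, of the oligoadenylate synthetase family, was at 76.9, 21.1 and 11.9 CPM in the controls and at 8.34, 7.52 and 7.50 CPM in sh5 (log2 fold change -2.24, adjusted p = 0.0138). Irf7, an interferon regulatory factor, was at 7.57 to 43.3 CPM in the controls against 3.16 to 6.45 CPM in sh5. Isg15, a ubiquitin-like protein, was at 68.8, 35.2 and 12.3 CPM against 9.64, 11.6 and 9.19 CPM. For these 3 genes non-targeting replicate 1 was the highest control, and the rule that named them required no overlap of control and sh5 libraries. Of the 29 genes, 13 had all 3 sh5 libraries below all 3 controls, against 28.6% of all genes. Mx2, also called in both fits, overlapped, at 17.9, 2.74 and 1.06 CPM against 1.90, 0.768 and 0.451 CPM. Its log2 fold change without non-targeting replicate 1 was -0.85 (adjusted p = 0.324). Without non-targeting replicate 1 the median over the list was -0.46 and 5 genes were called lower, with log2 fold changes of -1.08 for Oasl2 (adjusted p = 0.023), -1.25 for Irf7 (adjusted p = 0.0376) and -1.22 for Isg15 (adjusted p = 0.117). Without that library and sh5 replicate 3 together, the median was -0.23, and without non-targeting replicate 3 it was -2.04 with 23 genes called lower. Ifi27l2a had a log2 fold change of -3.44 with all libraries and -3.65 without non-targeting replicate 1, although its levels were low at 2.50 to 5.43 CPM against 0.0564 to 0.461 CPM and its exons overlap those of Ifi27.

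Few genes of the other lists were called with all libraries. Over all genes tested 17.7% rose and 18.1% fell, and the counts below stand beside these shares. Hmox1, the heme oxygenase and a target of NRF2, fell from 206, 199 and 211 CPM to 87.6, 103 and 73.7 CPM (log2 fold change -1.22, SE 0.11, adjusted p = 0.000105, and -1.03 with the GC correction), while over 20 NRF2 targets 4 rose and 5 fell. Of 73 ribosomal protein genes 1 rose and 26 fell, with a median of -0.21, -0.24 without replicate 3 and -0.12 with the GC correction. Rpl21, Rpl28 and Rps28 were called in both fits. Rpl28 was at 349, 393 and 380.4 CPM against 142, 174 and 161 CPM (log2 fold change -1.23, and -0.74 with the GC correction). Reads of such genes may be shared with their pseudogenes. Of 29 histone genes tested 6 rose and none fell, at a median exonic GC of 60.2%. Their median log2 fold change was 0.39, 0.57 without replicate 3 and 0.92 with the GC correction. With all libraries 3 were called higher, against 1.38% of all genes. With the GC correction 6 were called higher, against 0.997%. Hist1h1b, the member called in both fits, had 1, 5 and 9 reads in the controls and 20, 24 and 6 reads in sh5, so that the groups overlapped in reads.

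The other genes with the highest log2 fold changes in both fits had diverse functions. Cd53, a tetraspanin of leukocytes, rose from 6.28, 5.87 and 5.68 CPM to 28.8, 27.8 and 41.4 CPM (log2 fold change 2.46, and 2.27 without replicate 3). The 12 macrophage markers summed to 16.3 to 17.5 CPM in the controls and 19.1 to 24.1 CPM in sh5, with 8 of them under 1 CPM, and their part in the result was not tested. Gpm6b, a membrane proteolipid whose CRE is shown above, rose from 33.2, 28.1 and 27.8 CPM to 117, 116 and 128 CPM (log2 fold change 2.02, SE 0.11, adjusted p = 7.3e-06, and 2.00 without replicate 3). Gfra1, the receptor of GDNF, rose from 98.9, 93.2 and 90.1 CPM to 261, 264 and 286 CPM (log2 fold change 1.52, and 1.62 with the GC correction). Gpm6b and Gfra1 share exonic bases with Ofd1 and Gm10007. Rab3c, Gcnt2, Brinp3, Nabp1, Shisa6, Gm15674 and Ctsc completed the 12 highest, with log2 fold changes of 1.32 to 2.34, and of these Rab3c, Gcnt2 and Gm15674 share exonic bases with other annotated genes.

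Among the lowest, Dlk1 and H19 are imprinted genes of growth. Dlk1, a non-canonical Notch ligand, fell from 181, 161 and 172 CPM to 31.9, 33.1 and 27.4 CPM (log2 fold change -2.48, SE 0.09, adjusted p = 1.07e-06, and -2.37 without replicate 3). H19, a long noncoding RNA, fell from 278, 279.9 and 309 CPM to 70.3, 89.5 and 58.2 CPM (log2 fold change -1.99, and -1.83 without replicate 3). In both genes the sh5 libraries lay far below the controls. Stmn1, which destabilises microtubules, fell from 43.3, 44.1 and 49.8 CPM to 8.70 to 13.6 CPM (log2 fold change -2.07, SE 0.15, adjusted p = 2.41e-05). Tril, a Toll-like receptor accessory protein, Rnaseh2c, a subunit of ribonuclease H2, Tmem258, whose exons overlap those of Fen1, and 2410006H16Rik had log2 fold changes of -2.24 to -1.93.

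**Figure D5:**
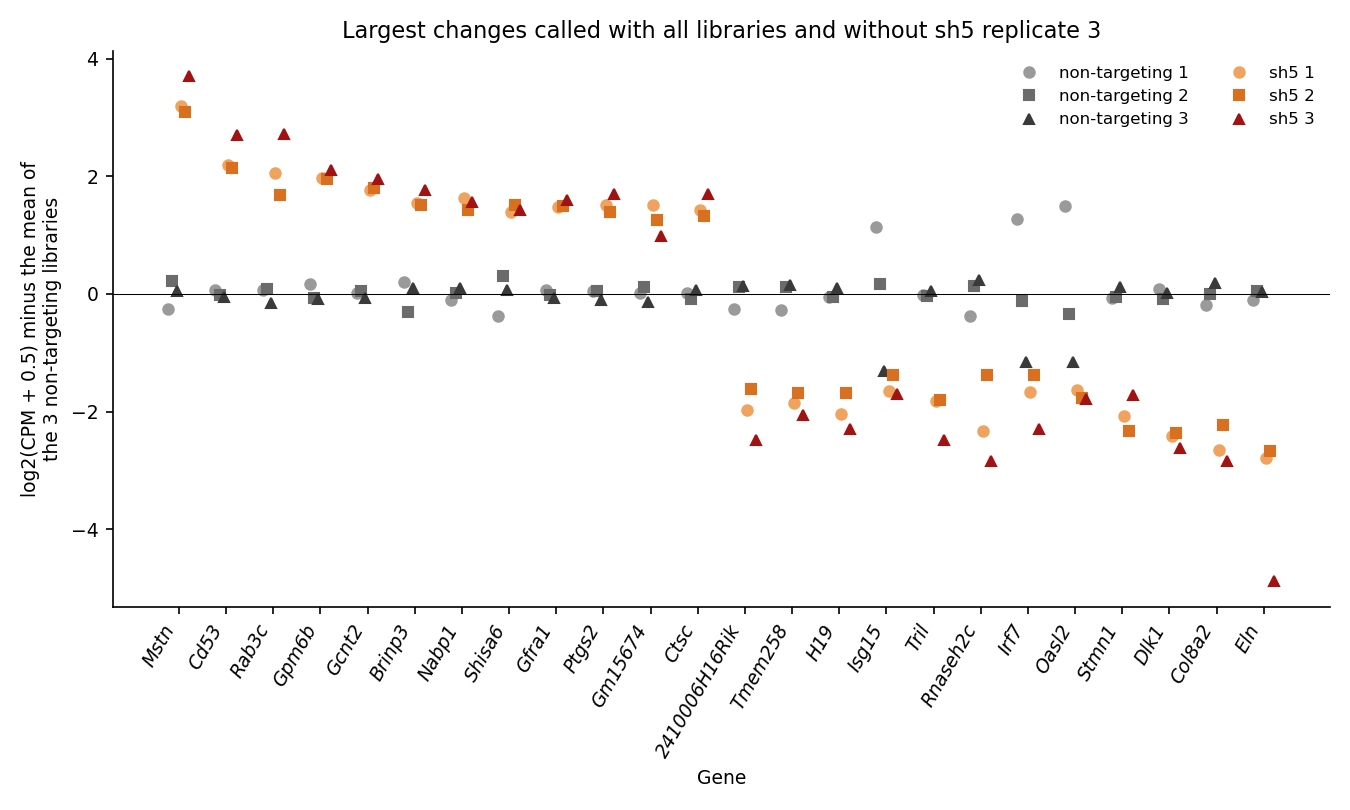
log2(CPM + 0.5) minus the mean of the 3 non-targeting libraries (y axis) for the 12 highest and 12 lowest genes called in both fits (x axis, in order of the log2 fold change without replicate 3), 1 point per library. The sh5 points lie close together for most genes, replicate 3 lies apart for Eln, and the non-targeting points are spread for Isg15, Irf7 and Oasl2.

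Some genes were past the 2-fold threshold only with replicate 3. The 3 highest of these at an average log2 CPM of at least 3 were Malat1, Kcnq1ot1 and Olr1, and the 3 lowest were Ddr1, Cebpa and Ptms. Malat1, a nuclear noncoding RNA, was at 1277, 1547 and 1174 CPM in the controls and at 1871, 1832 and 5816 CPM in sh5. Its log2 fold change of 1.25 (adjusted p = 0.0263) was 0.50 without replicate 3. Kcnq1ot1, another nuclear noncoding RNA, was at 13.1 to 15.7 CPM against 26.1, 25.3 and 41.4 CPM (log2 fold change 1.11, and 0.87 without replicate 3). Olr1, a scavenger receptor, was at 14.5, 12.1 and 13.1 CPM against 25.9, 23.1 and 36.1 CPM (log2 fold change 1.10, and 0.91 without replicate 3). Ddr1, a collagen receptor, was at 163, 199.8 and 197 CPM against 91.7, 98.1 and 34.3 CPM (log2 fold change -1.32, and -0.95 without replicate 3). Cebpa, a C/EBP factor, was at 49.1, 55.1 and 63.6 CPM against 26.8, 32.7 and 6.88 CPM, and Ptms, which encodes parathymosin, at 382, 432 and 443 CPM against 223, 247 and 47.4 CPM, with log2 fold changes of -0.88 and -0.81 without replicate 3. For these 6 genes replicates 1 and 2 differed from the controls in the same direction as replicate 3, but the fit without replicate 3 gave less than a 2-fold change, with an adjusted p of 0.000489 or lower.

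The second hairpin, sh6, shared the control libraries, so its values are set beside those of sh5 with no test of their overlap, and the difference between the hairpins was tested directly. With sh6, 15.7% of genes were called against the controls, 4.83% higher and 10.9% lower. Between the hairpins 15.8% were called, 6.36% higher in sh6 and 9.39% lower. Mstn, Cd53, Il6, Ptgs2 and Sc5d had log2 fold changes of 3.07, 1.93, 2.64, 3.24 and 1.74 with sh6. Eln, Col8a2, Dlk1, H19 and Trib3 had -4.82, -6.47, -3.46, -3.19 and -2.51. The median of contractile genes was 0.69 for sh6 and -0.51 for sh5. Myh11 was at 192, 181 and 184 CPM in sh6, above the controls and sh5 (sh6 minus sh5 3.39, adjusted p = 1.25e-07). Idi1 was at 31.6 CPM or lower in the sh6 libraries, which overlapped with the controls, and lower than in sh5 (sh6 minus sh5 -1.37, adjusted p = 4.4e-05). Cxcl14, at 33.4, 25.2 and 27.3 CPM, was also lower than in sh5 (sh6 minus sh5 -1.36, adjusted p = 5.79e-05). Stmn1, at 42.8, 39.8 and 41.6 CPM, and Hmox1, at 237, 221 and 209 CPM, were higher in sh6 than in sh5 (sh6 minus sh5 1.93 and 1.34). Of the 30 genes made up of the cell-cycle genes and the 24 with the largest changes, 10 differed between the hairpins past the 2-fold threshold.

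The untreated passage libraries of the series, 4 each of P1, P3, P5 and P7, gave lists of genes of late passage that do not use the knockdown. Of 13442 genes, 467 were called between P7 and P5 (3.47%), 160 higher at P7 (1.19%) and 307 lower (2.28%). Of the 145 higher genes tested in the knockdown, 28 were called higher in sh5 and 11 lower, against 1.38% higher and 3.82% lower over all genes tested in the knockdown, with a median log2 fold change of 0.11. Of the 275 lower genes, 5 were called higher and 25 lower, with a median of -0.01. Mstn was called higher at P7 and in both sh5 fits, with a log2 fold change of 2.53 from P5 to P7. Cdkn2a was at 101 ± 45.9 CPM at P5 and 224 ± 36.5 CPM at P7 (SD, n = 4), a log2 fold change of 1.15 (adjusted p = 0.000957), against -0.74 for sh5. The passage libraries were normalised apart, and levels of some genes were unlike those of the knockdown controls. At P5, Eln and Dlk1 were at 11.8 and 1.10 CPM, against means of 151 and 172 CPM in the controls. Cdkn2a, at 101 CPM at P5, had a mean of 74.6 CPM in the controls. Eln and Ifi27l2a had log2 fold changes of -1.55 and -2.01 from P5 to P7, the same direction as in sh5. Clic5, a chloride intracellular channel protein, had 1.42, the opposite direction, but its 14, 7 and 12 reads in the controls and 0, 3 and 0 in sh5 leave its fitted change uncertain.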

How the data were processed

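RNA-seq counts per gene were used as deposited. Per the labels and the methods, the authors used Trimmomatic (0.39) for trimming, HISAT2 (2.2.1) for alignment to the mm10 build and HTSeq (0.12.4), without strand, for counting, and tested with DESeq2. Reads on no gene (8.40% to 15.1%) and ambiguous reads stayed out of library sizes and tests.

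The 9 libraries of the Atf3 experiment (3 per group, mapped by their titles) were fitted together with edgeR (4.0.16, R 4.3.3) after filterByExpr and TMM scaling, with the quasi-likelihood test and Benjamini-Hochberg adjustment. A call needed an adjusted p under 0.05 and a 2-fold change. The fit was repeated without sh5 replicate 3 and with offsets from a lowess curve (span 0.3) of each library's log2 deviation from the mean of all libraries on exonic GC content (prior count 2 for log2 CPM). Of 24984 genes, 24463 were matched to RefSeq by symbol and 419 by an older symbol, and 24850 had a GC content. The 16 passage libraries, with 13430229 to 15725823 counts, were fitted apart. The scripts were tested on simulated data.

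Genes were named by a rule: the cell-cycle genes of the study, the 12 highest and 12 lowest called in both fits without overlap at an average log2 CPM of at least 3, up to 4 members per list called in both fits, the 3 highest and 3 lowest called only with replicate 3, and 4 genes also called between P7 and P5. Members and lists were chosen with earlier results of these data known. Cdkn1a, Cdkn2b, Jun, Junb, Jund, Jdp2, Klf4, Atf4, Atf5, Chac1, Ddit3, Hmgcs1, Col1a1, the metalloproteinases, Acta2 and Tagln were named as list members after their values were seen. The results of 1 further list and of some genes are not reported here. The numbers that replicates share in the labels were checked for pairing: the correlations of deviations from the group means between sh5 and control libraries of the same number were -0.07, 0.05 and -0.03, so they were not treated as pairs. Alternatives were DESeq2 (1.42.0) and its size factors, other filters, a replicate block, a test against 1.5-fold, fits of fewer groups and fits without each library.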

Additional observations from a re-analysis of the deposited data

Results flagged for a closer look

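The hairpins differed past the 2-fold threshold for 10 of the 30 genes made up of the cell-cycle genes and those with the largest changes. On the log2 scale, sh6 minus sh5 was -3.85 for Col8a2, -3.59 for Tril, -1.63 for Eln, -1.47 for Gpm6b, -1.20 for H19 and -1.13 for Gm15674. It was 2.77 for Rnaseh2c, 1.93 for Stmn1, 1.77 for Tmem258 and 1.69 for Ptgs2.

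Reads on no gene, which entered no comparison, made up 11.1%, 10.7% and 15.1% of sh5 replicates 1, 2 and 3, above the 8.40% to 8.98% of the controls. One P5 library had 2.45 CPM of Clic5, apart from the other 3 libraries of its passage by Dixon's criterion, which marks about 1 in 20 groups by chance. Groups of 3 were not tested in this way.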

How the results depend on the processing

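The count of 694 calls was 357 with the GC correction (224 lower), 335 with the replicate block and GC correction (207 lower), 376 with the GC correction and without sh5 replicate 3 (245 lower), 245 in the test against 1.5-fold (90 higher and 155 lower), and 4785 with no fold threshold (2365 higher and 2420 lower). Without sh5 replicate 3 and non-targeting replicate 1, an alternative chosen after seeing the data, 335 genes were lower. Leaving out each library in turn gave 489 to 1037 calls, 135 to 260 higher and 343 to 777 lower, with the 1037 and 777 from the fit without sh5 replicate 2. The replicate block gave 723 calls. At least 10 counts in every library gave 481, and DESeq2 675.

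Atf3 kept its direction but not an adjusted p under 0.05 with only sh5 and non-targeting libraries (-1.12), the replicate block (-1.19, adjusted p = 0.0552), the GC correction (-1.02), both together (-1.07), the correction without sh5 replicate 3 (-0.64) and without that library and non-targeting replicate 1 (-0.63), and ranged from -1.62 to -0.71 over fits without 1 library. It was not tested with at least 10 counts in every library. Cdkn2a was -0.19 with the GC correction, with or without the block, and -0.20 without sh5 replicate 3 as well, all with an adjusted p over 0.05, and ranged from -0.85 to -0.52 over fits without 1 library. Without non-targeting replicate 2 it did not pass the test (adjusted p = 0.0536). Cdkn2d turned to 0.044 with the GC correction, 0.023 with the block as well and 0.20 without sh5 replicate 3. The causes were not tested.

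Against the mean of all 9 libraries the GC trend was 0.14, 0.29 and 0.27 in the controls, -0.16, -0.10 and -0.66 in sh5 and 0.18, 0.074 and -0.035 in sh6, so the size of a trend depends on the reference while sh5 stayed below the controls. Calls between P7 and P5 numbered 403 to 520 when the P5 and P7 libraries of 1 replicate number were left out. For 59 genes named by the rule, Atf3 and Cdkn2a not among them, 1110 values were compared. Of these, 1038 kept their direction and their side of an adjusted p of 0.05, whatever the fold, 69 no longer passed that test and 3 reversed. Most of the 59 were named because they were called in both fits, so part of this agreement was set by the choice. Genes named after their values were seen were not counted. Low counts limit Atf3, Clic5, Tslp and Ifi27l2a.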
